A study of Rattus norvegicus with 35 samples.

Results

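The miR-34 family was followed in rat liver through 4 mature microRNAs, miR-34a-5p, miR-34b-5p, miR-34c-5p and miR-34c-3p, which were taken by name from a table of 763 rat miRNAs. MicroRNAs (miRNAs) are short RNAs that guide the silencing machinery to messenger RNAs and lower their output. The livers came from male Sprague-Dawley rats, 6 weeks old, that received ketoconazole by mouth each day, an azole antifungal drug with known liver toxicity. The groups were a high dose (100 mg/kg), a middle dose (30 mg/kg), a low dose (10 mg/kg) and controls given the vehicle, 0.5% methylcellulose, each for 3, 7 or 14 days, and liver was taken 24 h after the last dose. Each of the 12 groups held 3 libraries, except control day 14, which held 2. Strain, sex, starting age and the daily oral dosing were common to all groups. The labels do not say whether the replicates of a group were separate rats, so p-values measure the spread between these libraries.

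The miR-34 genes are known as direct transcriptional targets of p53, the tumour suppressor that responds to DNA damage and other stress. miR-34a has a gene of its own and is the member found in most tissues, liver among them, where it is known to repress Sirt1 and regulators of the cell cycle. miR-34b and miR-34c share 1 primary transcript, which is best known from multiciliated epithelium, testis and lung, and their genes neighbour each other in the RefSeq annotation. Each hairpin gives a 5p and a 3p strand, and the 5p strands are the usual guides.

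The mature sequences below show what groups and separates the members. They are RefSeq's (assembly GRCr8), written 5′ to 3′ with the seed, bases 2 to 8, in capitals, and they include the other strands of the 3 hairpins and the 2 further miRNAs with the same seed.
miR-34a-5p: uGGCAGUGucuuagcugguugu
miR-34b-5p: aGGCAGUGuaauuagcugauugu
miR-34c-5p: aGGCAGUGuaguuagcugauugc
miR-449a-5p: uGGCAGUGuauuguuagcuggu
miR-449c-5p: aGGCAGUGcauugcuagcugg
miR-34c-3p: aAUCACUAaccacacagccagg
miR-34b-3p: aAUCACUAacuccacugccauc
miR-34a-3p: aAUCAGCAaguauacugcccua
The 3 member 5p strands share the seed GGCAGUG with miR-449a-5p and miR-449c-5p, and these 5 were the only holders of it among 693 rat mature sequences in the RefSeq table. miR-34c-3p shares its seed with miR-34b-3p alone, and the miR-34a 3p strand has another. miR-34b-5p and miR-34c-5p are identical at 21 of 23 positions and differ by A11G and U23C, with miR-34b-5p's base first and positions counted from the 5′ end. How the authors assigned reads that fit both is not given in the sources used here, so the split between miR-34b-5p and miR-34c-5p is uncertain.

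Library totals ran from 2665943 to 9665416 counts, with a median of 3758063. The first principal component of log2 expression, with 46.2% of the variance, parted the libraries into 2 clusters with no value between -4.32 and 4.24. One cluster of 21 held all high dose, all middle dose and the low dose day 7 libraries, and the other cluster of 14 held all controls and the low dose libraries of days 3 and 14. The labels name no batch, so dose and any shared handling cannot be told apart in a comparison of high or middle dose with control. The same holds for low dose day 7 against control, for high or middle against low dose averaged over days, and for trends over doses. High against middle dose was a comparison within 1 cluster. The low dose on day 7 against its other days compared the clusters at 1 dose, but it compared days as well. The most distant libraries were replicates 2 and 3 of control day 7, with scores of -14.49 and -13.26.

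All 4 members passed the filter on low counts that kept 328 miRNAs for testing, and their levels lay far apart. Levels are in CPM, counts scaled to a common library total, with each total first adjusted by a TMM factor from edgeR. They need no correction for length because each mature miRNA is read whole. miR-34c-5p was the most abundant, with a mean of 92.3 CPM over the 35 libraries, place 134 among 612 miRNAs with any count. miR-34a-5p averaged 27.6 CPM, at place 195, and miR-34b-5p 5.33 CPM, at place 272. miR-34c-3p averaged 1.05 CPM and had no count in 3 libraries. For scale, miR-122-5p, the hallmark miRNA of hepatocytes, averaged 32400 CPM. Counts per library ran from 37 to 280 for miR-34a-5p, from 179 to 713 for miR-34c-5p, from 7 to 72 for miR-34b-5p and from 0 to 12 for miR-34c-3p. Their exact 95% Poisson intervals at the low ends were 26.1 to 51.0, 154 to 207, 2.81 to 14.4 and 0 to 3.69 counts, and they cover counting error only.

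**Figure D1:**
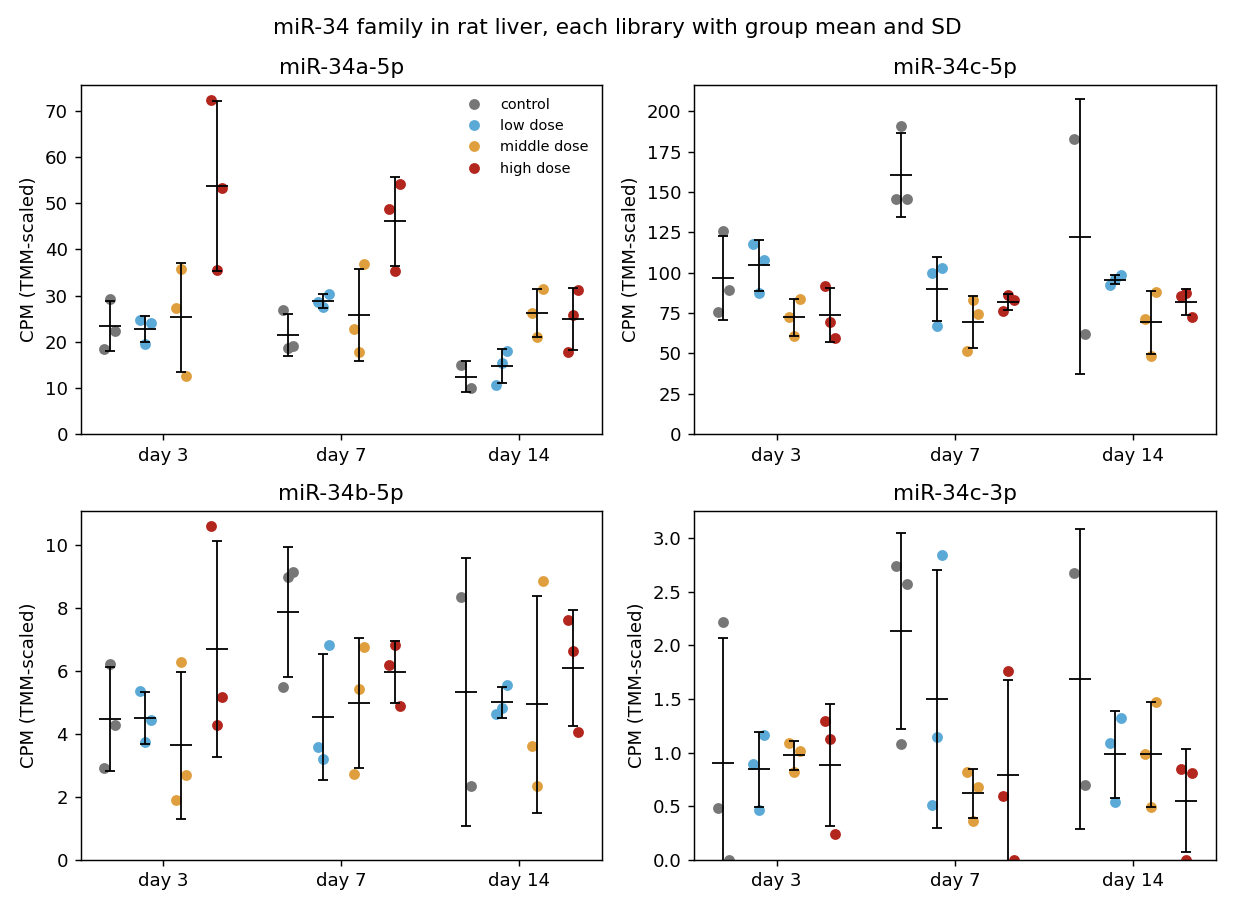
CPM (linear axes from 0) of the 4 members in each of the 35 libraries, by day and, within a day, by dose from control to high. Points are libraries, bars are group means and SDs. miR-34a-5p is highest at the high dose on days 3 and 7, while miR-34c-5p is highest in controls of day 7 and is split between the 2 controls of day 14.

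miR-34a-5p, the widely expressed p53 target, was higher at the high dose than in controls on each of the 3 days, by close to 2-fold. On day 3 it had 72.5, 35.6 and 53.3 CPM at the high dose, against 18.4, 29.3 and 22.4 CPM in controls. On day 7 the values were 48.7, 35.4 and 54.2 CPM at the high dose and 26.8, 18.7 and 19.1 CPM in controls. On day 14 they were 17.8, 25.7 and 31.1 CPM at the high dose and 14.9 and 10.0 CPM in controls. The 3 high dose libraries lay above every control of their day on all 3 days, a state that 25% (day 3), 26.2% (day 7) and 31.4% (day 14) of the tested miRNAs shared. Whole-liver RNA does not tell a change in the number of cells of a type from a change in RNA per cell.

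Fold changes and adjusted p-values below come from the quasi-likelihood F-test of edgeR, adjusted by Benjamini and Hochberg's method over the 328 miRNAs, log2 fold changes carry their standard error, and the threshold is an adjusted p of 0.05. The log2 fold change of miR-34a-5p at the high dose was 1.20 ± 0.30 on day 3 (adjusted p = 0.00177), 1.09 ± 0.30 on day 7 (adjusted p = 0.00357) and 0.996 ± 0.37 on day 14 (adjusted p = 0.0373). These calls stand against a background of 35.1%, 51.8% and 35.4% of all tested miRNAs called on those days. Averaged over days it was 1.09 ± 0.19, a 2.13-fold higher level (adjusted p = 8.5e-06), in a comparison that called 62.8% of the miRNAs. Among the 328 this was place 42 from the top. The day 14 call rested on 2 controls and was lost without either of them, at 1.15 without replicate 1 and 0.66 without replicate 2 (edgeR adjusted p = 0.0886 and 0.355). It was also lost without high dose day 14 replicate 2 (0.90) or replicate 3 (0.82), with library size alone as scaling (0.81, edgeR adjusted p = 0.0998), with no low-count filter (0.97, edgeR adjusted p = 0.0646) and after thinning to 1 depth (0.85, edgeR adjusted p = 0.0942). The day 7 call was lost without control day 7 replicates 2 and 3, at 0.75 (edgeR adjusted p = 0.26), as was the day 14 call, at 0.89 (edgeR adjusted p = 0.0665), while the average stayed past the threshold at 0.94 (edgeR adjusted p = 0.000768).

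At the middle dose miR-34a-5p separated from control on day 14 only among the days tested. It had 26.2, 20.9 and 31.4 CPM at the middle dose on day 14, all above the 2 controls given above, as for 24.4% of the tested miRNAs. On day 3 it had 27.4, 35.9 and 12.5 CPM and on day 7 22.8, 17.7 and 36.9 CPM at the middle dose, ranges that overlapped the controls. The log2 fold change was 1.08 ± 0.36 on day 14 (edgeR adjusted p = 0.0249, 28.4% of miRNAs called), against 0.12 ± 0.31 on day 3 and 0.25 ± 0.31 on day 7, which did not pass with 38.1% and 50.9% of miRNAs called. The difference between the day 14 and day 3 effects was 0.96 ± 0.47 and did not pass (edgeR adjusted p = 0.724, 0% called). The day 14 call was lost without either control (1.27 and 0.74) and without middle dose day 14 replicate 1 (1.01) or replicate 3 (0.92), and also with library size alone (0.86, edgeR adjusted p = 0.0781) and after thinning (0.81, edgeR adjusted p = 0.132). The average over days was 0.48 ± 0.19 (edgeR adjusted p = 0.026), beside 61.9% of miRNAs called. That average fell short of the threshold when control day 7 replicates 2 and 3 were left out (0.28, edgeR adjusted p = 0.294) and when any 1 of 9 single libraries was. These were middle dose day 3 replicates 1 and 2, day 7 replicate 3 and day 14 replicate 3, and control day 3 replicate 1, day 7 replicates 2 and 3 and day 14 replicates 1 and 2, with values from 0.35 to 0.50.

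At the low dose no test of miR-34a-5p against control passed. Its levels were 24.8, 19.6 and 24.0 CPM on day 3, 28.6, 27.4 and 30.4 CPM on day 7 and 10.6, 15.5 and 17.9 CPM on day 14. The day 7 libraries lay above the 3 controls of that day, as did those of 29.9% of the tested miRNAs, and the other days overlapped. The log2 fold changes were -0.04 ± 0.30, 0.41 ± 0.31 and 0.25 ± 0.37 on days 3, 7 and 14, in comparisons that called 0%, 45.1% and 0% of miRNAs. The average over days was 0.21 ± 0.19, with a 95% interval from -0.18 to 0.60 (edgeR adjusted p = 0.467, 22.6% called). Across the clusters at this dose, day 7 against days 3 and 14, the difference was 0.65 ± 0.26 and did not pass (edgeR adjusted p = 0.055, 30.2% called), though it did when only those libraries were fitted, at 0.52 (edgeR adjusted p = 0.0349). Day changes along with cluster in that comparison, so they cannot be told apart there. Mean levels on days 3, 7 and 14 were 22.8, 28.8 and 14.7 CPM at the low dose. Controls, which all lay in the same cluster, averaged 23.4, 21.5 and 12.4 CPM.

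Within the cluster that holds both higher doses, miR-34a-5p was higher at the high than at the middle dose. The average over days was 0.61 ± 0.18 on the log2 scale, a 1.53-fold higher level (edgeR adjusted p = 0.0151), place 5 from the top of 328 in a comparison that called 17.4% of the miRNAs and 7.93% upward. By day the difference was 1.08 ± 0.30 on day 3 (edgeR adjusted p = 0.0267, 7.01% called), 0.83 ± 0.30 on day 7 (edgeR adjusted p = 0.154, 0% called) and -0.09 ± 0.31 on day 14 (edgeR adjusted p = 0.942, 0.915% called). The libraries of these doses overlapped on all 3 days, and on day 14 only 1 of 3 high dose libraries lay above the middle dose mean. The average was no longer past the threshold over days 3 and 14 alone, at 0.50 (edgeR adjusted p = 0.137). The day 3 call was lost without middle dose day 3 replicate 1 or 3 (1.16 and 0.77) and without high dose day 3 replicate 1 or 3 (0.85 and 1.08). It was lost too with no low-count filter (1.05, edgeR adjusted p = 0.0569), after thinning (0.96, edgeR adjusted p = 0.0665) and when only the groups compared were fitted (1.04, edgeR adjusted p = 0.153). High against low dose gave 0.89 ± 0.18 (edgeR adjusted p = 9.5e-05, 25.9% of miRNAs called higher), and middle against low dose gave 0.28 ± 0.18 (edgeR adjusted p = 0.218, 44.5% called), which passed without middle dose day 3 replicate 3, at 0.41. Over the steps from control to high dose the slope was 0.36 ± 0.06 log2 units a step (edgeR adjusted p = 4.25e-06, 65.2% called). These comparisons with the low dose and this slope were not within 1 cluster. Low dose days 3 and 14 and all controls lay in the other.

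In the order of group means the 12 groups ran from control day 14, at 12.4 ± 3.45 CPM (SD, n = 2), to high dose day 3, at 53.8 ± 18.5 CPM (SD, n = 3). Only 2 of the 11 steps in that order parted neighbouring groups whose ranges did not overlap. One lay between low dose day 14 at 14.7 ± 3.72 CPM and control day 7 at 21.5 ± 4.53 CPM, and the other between high dose day 7 at 46.1 ± 9.66 CPM and low dose day 7 at 28.8 ± 1.49 CPM. The 8 groups between those steps all had means from 21.5 to 28.8 CPM. Neither step parted all groups on its sides. Middle dose day 7 reached 36.9 CPM, above the lowest high dose day 7 library at 35.4 CPM. Middle dose day 3 reached down to 12.5 CPM, below the highest low dose day 14 library at 17.95 CPM.

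Averaged over all groups, the level of miR-34a-5p was lower on day 14 than on day 3, but the middle dose means were close together. On day 14 and day 3 the mean was 24.9 and 53.8 CPM at the high dose, 26.2 and 25.3 CPM at the middle dose, 14.7 and 22.8 CPM at the low dose, and 12.4 and 23.4 CPM in controls. Averaged over control and the 3 doses, the log2 difference of day 14 to day 3 was -0.66 ± 0.16 (edgeR adjusted p = 0.00598, 12.8% of miRNAs called and 7.32% downward), place 314 of 328 from the top. Day 7 to day 3 gave 0.01 ± 0.15 (edgeR adjusted p = 0.979, 6.40% called). Within the high dose, day 7 to day 3 gave -0.22 ± 0.29 (edgeR adjusted p = 0.964, 0% called), the day 14 to day 3 difference was -1.12 ± 0.31 (edgeR adjusted p = 0.0599, 0.915% called) and within controls it was -0.92 ± 0.36 (edgeR adjusted p = 0.507, 0% called), so neither passed alone. The high dose difference of day 14 to day 3 did pass without high dose day 3 replicate 2, at -1.35 (edgeR adjusted p = 0.0338), and by DESeq2, at -1.11 (adjusted p = 0.0211). It passed as well with library size alone (-1.38, edgeR adjusted p = 0.0111), with a filter of 10 CPM in 3 libraries (-1.15, edgeR adjusted p = 0.039) and without control day 7 replicates 2 and 3 (-1.18, edgeR adjusted p = 0.047). The high dose effect on day 14 minus that on day 3 was -0.20 ± 0.47 (edgeR adjusted p = 0.989), and on day 7 minus day 3 -0.11 ± 0.42 (edgeR adjusted p = 0.935), with 0% of miRNAs called in both. Age rose with the duration of dosing, so time on study and age cannot be told apart.

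**Figure D2:**
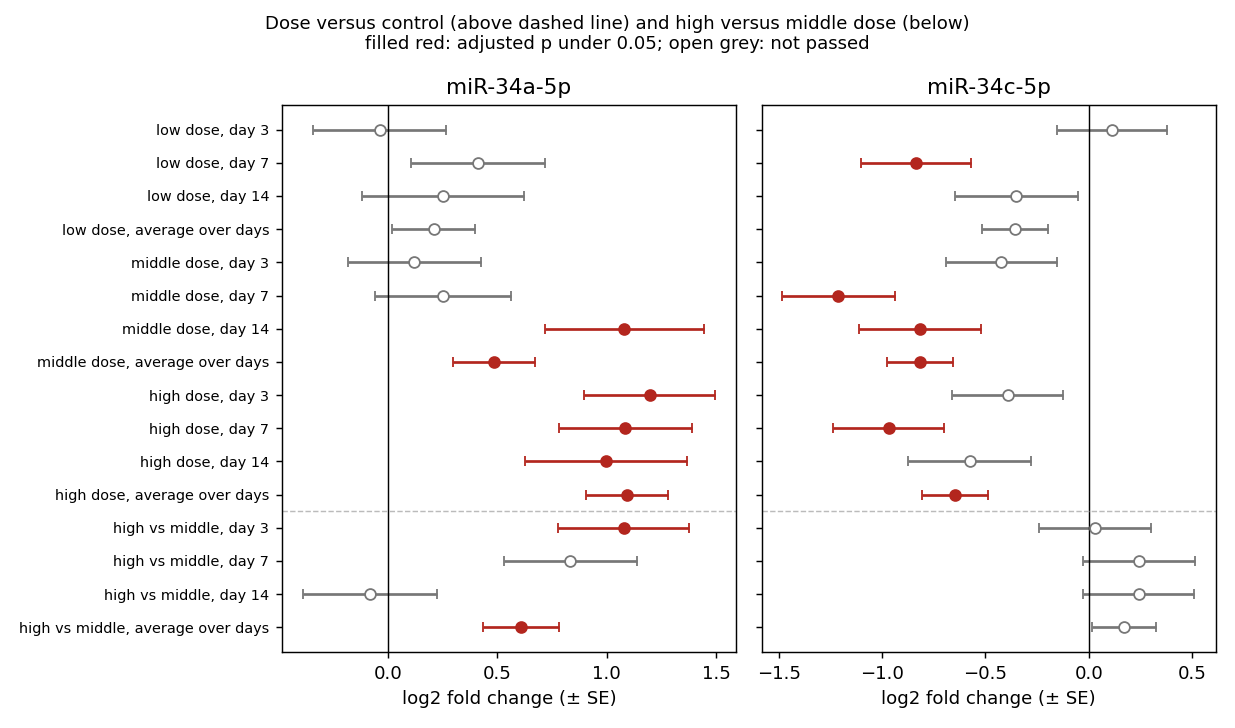
log2 fold changes (x axes) of miR-34a-5p and miR-34c-5p at each dose against the control of the day, by day and averaged, above the dashed line, and of high against middle dose below it. Bars are standard errors, filled red points passed an adjusted p of 0.05, open grey points did not. The average at the high dose is 1.09 for miR-34a-5p and -0.65 for miR-34c-5p.

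miR-34c-5p, the most abundant member and the guide strand of its hairpin, was lower at the middle and high doses than in controls. On day 7 it had 76.4, 86.2 and 83.1 CPM at the high dose, against 145.3, 190.6 and 145.4 CPM in controls. On the same day it had 51.4, 82.7 and 74.1 CPM at the middle dose and 100.0, 67.0 and 102.6 CPM at the low dose. Every treated library of day 7 therefore lay under every control, at all 3 doses. Of the tested miRNAs, 29.9% lay wholly below control in this way at the high dose, 22.3% at the middle dose and 20.4% at the low dose.

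On days 3 and 14 the ranges of miR-34c-5p overlapped the controls at each dose. On day 3 it had 91.9, 69.5 and 59.7 CPM at the high dose, against 75.5, 125.5 and 89.1 CPM in controls. The middle dose had 72.4, 60.8 and 83.5 CPM and the low dose 117.9, 87.3 and 108.0 CPM on that day. On day 14 it had 85.7, 87.1 and 72.4 CPM at the high dose, against 182.7 CPM in control replicate 1 and 61.9 CPM in control replicate 2. The middle dose had 71.4, 48.6 and 87.7 CPM and the low dose 92.5, 96.1 and 98.5 CPM on day 14. The 2 controls of day 14 thus stood on either side of all 9 treated libraries except 1 middle dose library at 48.6 CPM.

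The log2 fold change of miR-34c-5p at the high dose was -0.39 ± 0.27 on day 3 (edgeR adjusted p = 0.274), -0.97 ± 0.27 on day 7 (edgeR adjusted p = 0.00322) and -0.58 ± 0.30 on day 14 (edgeR adjusted p = 0.133). At the middle dose it was -0.42 ± 0.27 on day 3 (edgeR adjusted p = 0.221), -1.21 ± 0.27 on day 7 (edgeR adjusted p = 0.000437) and -0.82 ± 0.29 on day 14 (edgeR adjusted p = 0.0367). At the low dose only day 7 passed among the days, at -0.84 ± 0.27 (edgeR adjusted p = 0.0104), with 0.11 ± 0.27 on day 3 and -0.35 ± 0.30 on day 14. The day 7 calls at the high and low doses were lost without control day 7 replicates 2 and 3, at -0.85 and -0.83 (edgeR adjusted p = 0.0977 and 0.114). The low dose call was also lost without low dose day 7 replicate 2, at -0.66. Without control day 14 replicate 1, the day 14 values turned positive, to 0.24 at the high, 0.04 at the middle and 0.58 at the low dose, so the day 14 call at the middle dose rested on that library. That call was lost without middle dose day 14 replicate 2 as well, at -0.64, and when only the groups compared were fitted, at -0.80 (edgeR adjusted p = 0.215). Without control day 14 replicate 2 the high dose value of day 14 was -1.23 and passed (edgeR adjusted p = 0.00253), as it did with library size alone, at -0.79 (edgeR adjusted p = 0.0335).

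Averaged over days, miR-34c-5p changed by -0.65 ± 0.16 at the high dose (edgeR adjusted p = 0.000834) and by -0.82 ± 0.16 at the middle dose (edgeR adjusted p = 5.76e-05). Both stayed past the threshold when each library was left out in turn, over -0.83 to -0.38 at the high and -1.05 to -0.58 at the middle dose, with the weakest value in each case coming without control day 14 replicate 1. The low dose average was -0.36 ± 0.16 (edgeR adjusted p = 0.107), with a 95% interval from -0.69 to -0.03. Without control day 14 replicate 1 it was -0.13, and it passed without control day 14 replicate 2 (-0.56) or without control day 7 replicate 1 (-0.43). High against middle dose gave 0.17 ± 0.16 with a 95% interval from -0.15 to 0.49 (edgeR adjusted p = 0.479). Middle against low dose gave -0.46 ± 0.16 (edgeR adjusted p = 0.0164) and high against low dose -0.29 ± 0.15 (edgeR adjusted p = 0.122). The slope over dose steps was -0.24 ± 0.05 log2 units a step (edgeR adjusted p = 0.000117).

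The miR-34c-5p controls were also compared between days. Control day 7 averaged 160.4 ± 26.2 CPM and control day 3 96.7 ± 25.9 CPM (SD, n = 3 each), a log2 difference of 0.73 ± 0.27 that did not pass (edgeR adjusted p = 0.104, 1.52% of miRNAs called). The low dose on day 7 and on its other days differed by -0.15 ± 0.23 (edgeR adjusted p = 0.664). The low dose effect on day 7 minus that on day 3 was -0.95 ± 0.38 and did not pass (edgeR adjusted p = 0.0516, 32.0% called), but by DESeq2 it did, at -1.04 (adjusted p = 0.0168). It passed too with DESeq2's size factors, library size alone, the filter of 10 CPM, thinning, run 1 alone of the repeated libraries and only the groups compared (-1.04 to -0.95, edgeR adjusted p from 0.0246 to 0.0499). It also passed without control day 3 replicate 2 (-1.24), control day 7 replicate 1 (-1.01) or 3 (-1.06) or low dose day 3 replicate 2 (-1.12). Over days 3 and 14 alone the averages were -0.48 at the high dose (edgeR adjusted p = 0.0446) and -0.62 at the middle dose (edgeR adjusted p = 0.0111). Averaged over control and doses, day 14 to day 3 differed by 0.07 ± 0.14 (edgeR adjusted p = 0.873). In the order of the 12 group means, from middle dose day 14 at 69.2 ± 19.6 CPM to control day 7, each group overlapped the next.

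The ratio of the 2 abundant guide strands within a library does not depend on the scaling between libraries. For miR-34a-5p to miR-34c-5p counts it was 3.15-fold higher at the high dose than in controls, a mean within-day log2 difference of 1.65. The daily differences were 1.55, 2.05 and 1.37 on days 3, 7 and 14. A two-sided exact permutation test that relabelled libraries within days gave p = 0.00025, the smallest that its 4000 relabellings can give. Adjusted over the 4 ratio tests made, this was 0.001. miR-34a-5p made up 33.6% ± 9.86 of the counts of both at the high dose, against 14.5% ± 4.88 in controls (SD, n = 9 and 8). On days 3 and 7 every high dose library, at 29.1% to 47.2%, lay above every control of those days, at 8.94% to 20.1%. On day 14 the 3 high dose libraries had 17.2%, 22.8% and 30.1%, against 7.53% and 13.9% in the 2 controls. With the days pooled, mean shares ran 14.5% (control), 18.6% (low dose), 27.0% (middle dose) and 33.6% (high dose), but this order did not hold on each day. On days 3, 7 and 14 the low dose had 18.0%, 24.7% and 13.2%, against 19.6%, 12.0% and 10.7% in controls. The middle dose had 25.9%, 27.2% and 27.8% and the high dose 41.7%, 35.8% and 23.4% on those days. Between the high and middle doses the ratio differed by 0.46, with daily values of 1.14, 0.61 and -0.36, and the two-sided exact permutation p was 0.155 over 8000 relabellings. Ratios within a library show unequal change and not which of the pair changed.

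With the days pooled, the summed level of the seed group at each dose overlapped that of controls. The 5 miRNAs with the seed GGCAGUG added up to 129.3 ± 21.0 CPM at the high dose, 102.5 ± 17.8 CPM at the middle dose and 125.5 ± 17.1 CPM at the low dose, against 156.0 ± 52.3 CPM in controls (SD). Of this sum miR-34a-5p held 31.4% at the high dose and 13.7% in controls. The libraries ranged from 108.8 to 176.6 CPM at the high dose and from 76.8 to 221.9 CPM in controls. On day 7 the 9 treated libraries, at 77.5 to 143.7 CPM, lay under the 3 controls, at 176.5 to 221.9 CPM. Most of the sum was miR-34c-5p, at a mean of 160.4 of 193.4 CPM in control day 7. Its own separation on that day is given above, so the sum largely repeats it.

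**Figure D3:**
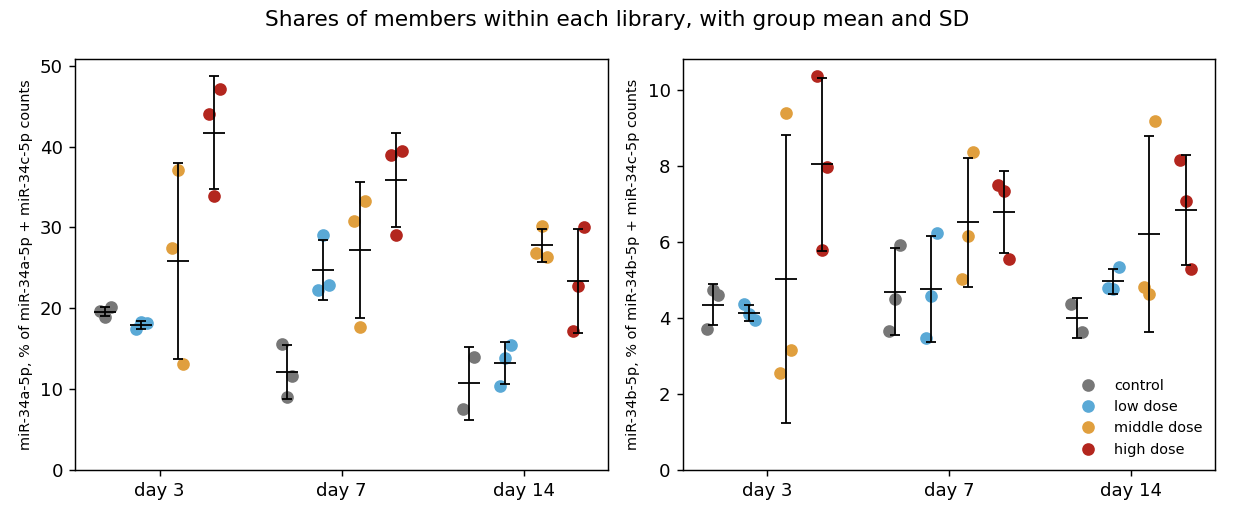
Share of miR-34a-5p in the counts of miR-34a-5p and miR-34c-5p (left) and of miR-34b-5p in those of miR-34b-5p and miR-34c-5p (right), in percent, for each library by day and dose. Bars are group means and SDs. The high dose averages 33.6% on the left and 7.22% on the right, controls 14.5% and 4.38%.

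miR-34b-5p, transcribed together with miR-34c, passed no comparison by itself. Its libraries ranged from 4.04 to 10.6 CPM at the high dose with a median of 6.18, from 1.90 to 8.85 CPM at the middle dose and from 3.20 to 6.82 CPM at the low dose, against 2.33 to 9.14 CPM in controls with a median of 5.85. The average over days was 0.15 ± 0.29 for high dose against control, with a 95% interval from -0.44 to 0.74 on the log2 scale (edgeR adjusted p = 0.684). The middle and low dose averages were -0.33 ± 0.29 and -0.28 ± 0.29, high against middle dose gave 0.48 ± 0.28, and the slope was 0.04 ± 0.09 a dose step. High against middle dose passed in 1 case, at 0.75 without middle dose day 14 replicate 3 (edgeR adjusted p = 0.0479).

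Relative to its transcript partner, however, miR-34b-5p was higher at the high dose. Its share of the counts of miR-34b-5p and miR-34c-5p was 7.22% ± 1.58 at the high dose and 4.38% ± 0.76 in controls (SD, n = 9 and 8). The high dose libraries ran from 5.29% to 10.4%, against 3.62% to 5.92% in controls, so the extremes overlapped. The low dose had 4.61% ± 0.82 and the middle dose 5.91% ± 2.54 (SD, n = 9 each). The ratio of miR-34b-5p to miR-34c-5p was 1.70-fold higher at the high dose than in controls, with a log2 difference of 0.76 and daily values of 0.90, 0.58 and 0.80. The two-sided exact permutation test gave p = 0.001, and 0.002 adjusted over the 4 ratio tests. Between high and middle dose the log2 difference was 0.39 (two-sided exact permutation p = 0.166). This ratio was chosen after its values were seen, and it rests on 7 to 72 counts of miR-34b-5p a library.

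The 3p strands were scarce. miR-34c-3p made up 1.16% of the counts of its hairpin over all libraries, 149 of 12791 (95% exact binomial interval 0.986% to 1.37%), and miR-34a-3p 0.536% of its own, 21 of 3919 (0.332% to 0.818%). miR-34b-3p held a far larger part of its hairpin, 18.8%, 172 of 914 (16.3% to 21.5%). Because the reads carry no stated molecular identifiers, these intervals too cover counting error only. Neither miR-34a-3p, at a mean of 0.15 CPM, nor miR-34b-3p, at 1.22 CPM, passed the filter. The pooled share of miR-34b-3p does not describe every dose. By library it averaged 12.3% ± 5.27 at the high dose, 23.45% at the middle dose, 22.15% at the low dose and 23.2% ± 8.18 in controls (SD). Its level averaged 0.82 CPM at the high dose and 1.67 CPM in controls. These values rest on 1 to 12 counts of miR-34b-3p a library, and the difference was not tested.

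miR-34c-3p, the weaker strand of the miR-34c hairpin, ranged from 0 to 1.76 CPM at the high dose with a median of 0.81, and from 0 to 2.75 CPM in controls with a median of 1.65. The middle dose libraries ran from 0.36 to 1.48 CPM and the low dose libraries from 0.47 to 2.84 CPM. A level of 3 counts, which a library with 0 counts still allows, was worth 0.37 to 1.24 CPM here, so many of these values sit near the limit of the depth. The average over days was -0.95 ± 0.51 at the high dose (edgeR adjusted p = 0.111), with a 95% interval from -2.01 to 0.11. The middle and low dose averages were -0.79 ± 0.50 and -0.47 ± 0.47, high against middle dose gave -0.16 ± 0.55 and the slope was -0.32 ± 0.16 a dose step. None passed, while the high dose average did when replicate 3 of control day 3 (-1.14) or replicate 2 of high dose day 7 (-1.34) was left out, as did the slope (-0.37 and -0.43).

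Of the seed relatives outside the family, miR-449a-5p, known from multiciliated cells, passed the filter and averaged 2.09 CPM. It was lower on day 7 at the low dose than in controls, with a log2 fold change of -1.61 ± 0.51 (edgeR adjusted p = 0.0101, 45.1% of miRNAs called). Its low dose effect on day 7 minus that on day 3 was -1.75 ± 0.68 (edgeR adjusted p = 0.0486, 32.0% called). Both rest on few reads, with 2, 10 and 1 counts at the low dose on day 7 against 16, 10 and 10 in controls. Low dose replicates 1 and 3 thus lay under the level of 3 counts given above. Its high dose average was -0.53 ± 0.29 and did not pass (edgeR adjusted p = 0.116). miR-449c-5p averaged 0.27 CPM, was at 0 in 18 libraries and was not tested.

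**Figure D4:**
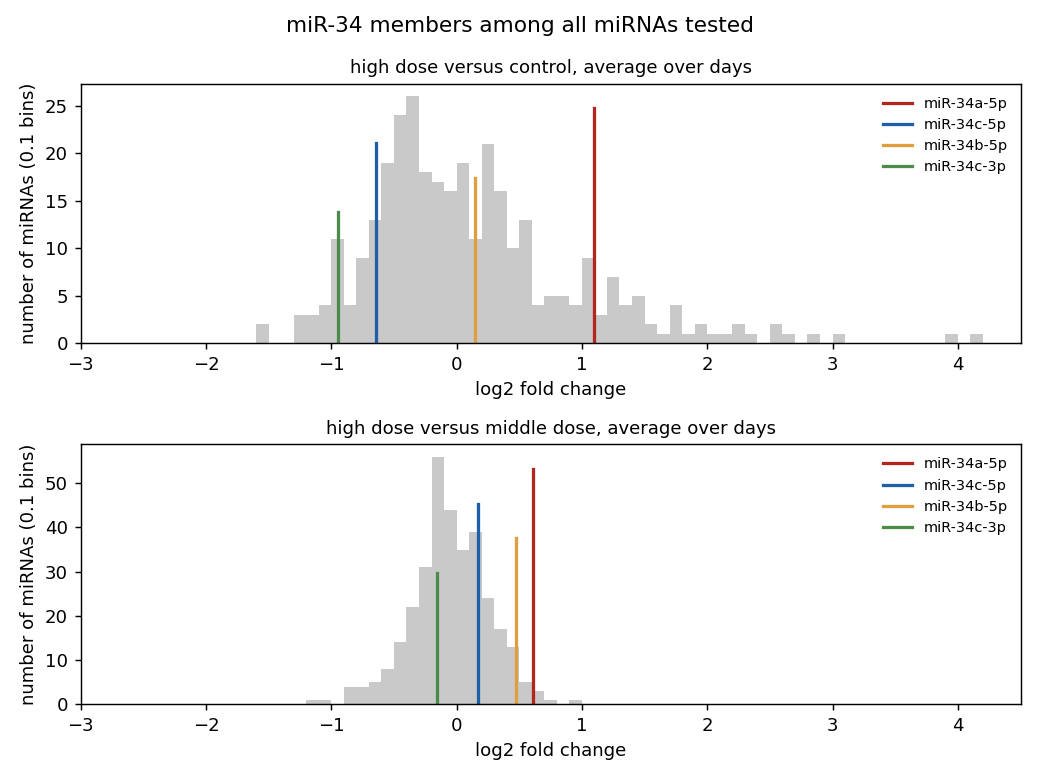
Histograms of the log2 fold change, averaged over days, of the 328 tested miRNAs for high dose against control (top) and high against middle dose (bottom), in bins of 0.1, with coloured lines at the 4 members; line height has no meaning. miR-34a-5p is at 1.09 in the top and 0.61 in the bottom panel.

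Set among all tested miRNAs, the members lay on both sides of the middle at the high dose, as the histogram of fold changes shows. The median of the 328 was -0.04 for high dose against control and -0.05 for high against middle dose. In the first comparison 1 of 4 members was called higher and 1 lower, beside 31.4% of the miRNAs in each direction. In the second 1 of 4 was called, miR-34a-5p, beside 17.4% of the miRNAs in either direction and 7.93% higher.

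Other mature miRNAs linked to p53, with each strand of a hairpin counted by itself, showed no common direction. A list of 23 names reported to be transcribed or processed under p53 had 20 in the table and 17 tested. In the high dose average 7 were higher, 7 were lower and 3 did not pass, which is 82.4% called against the 62.8% of all miRNAs, with a median log2 fold change of 0.24 beside -0.04 for all. The higher ones included miR-22-5p (4.19 ± 0.16), miR-145-5p (2.03 ± 0.15), miR-203a-3p (1.14 ± 0.10) and miR-194-3p (0.86 ± 0.12). The lower ones included miR-141-3p (-1.17 ± 0.19), miR-16-5p (-1.04 ± 0.09), miR-194-5p (-0.57 ± 0.07) and miR-145-3p (-0.45 ± 0.11). The strands of miR-145, and those of miR-194, thus moved in opposite directions. Counts of listed names are therefore not counts of separate genes, and the activity of p53 was not tested. miR-192-5p, an abundant liver miRNA and a reported p53 target, had -0.19 ± 0.06 (edgeR adjusted p = 0.00477). Its call was lost without the low-count filter (-0.12) and over days 3 and 14 alone (-0.13). miR-215, also on the list, was not among the 17 tested.

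Against the middle dose, the list had 2 higher and 2 lower members at the high dose and 13 that did not pass, with a median of -0.05, the same as that of all miRNAs. Its share of calls was 23.5% beside the background of 17.4%. The higher pair was miR-107-3p (0.48 ± 0.08, edgeR adjusted p = 0.000163) and miR-22-5p (0.35 ± 0.12, edgeR adjusted p = 0.049), and the lower pair was miR-145-3p (-0.65 ± 0.11, edgeR adjusted p = 0.000161) and miR-194-5p (-0.22 ± 0.07, edgeR adjusted p = 0.0221). miR-107-3p was named here after its value was seen. For the middle dose against control 8 were higher, 5 lower and 4 did not pass, which is 76.5% called against 61.9% of all miRNAs. For the low dose against control 4 were higher, 2 lower and 11 did not pass, which is 35.3% called against 22.6%. By day, 0% of all miRNAs were called at this dose on days 3 and 14. Low dose day 7 against its other days, which compares the clusters and also the days, had 5 higher, 1 lower and 11 not passed (35.3% called against 30.2%). The higher included miR-22-5p (3.24 ± 0.19), miR-145-5p (2.75 ± 0.19), miR-203a-3p (0.80 ± 0.14) and miR-194-3p (0.46 ± 0.17). The lower one was miR-192-5p (-0.29 ± 0.08).

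The miRNAs whose levels followed miR-34a-5p most closely over the 35 libraries, among 241 with a mean of at least 10 CPM, were miR-190a-5p, miR-15b-3p, miR-152-5p, miR-331-3p and miR-340-5p. Their Pearson r on log2 CPM was 0.743, 0.739, 0.652, 0.627 and 0.621. The libraries share the 2 clusters described above, and within the cluster of 21 the same r values were 0.723, 0.588, 0.462, 0.523 and 0.407. Within the cluster of 14 they were 0.319, 0.623, 0.419, 0.066 and 0.241. Of the 5, miR-190a-5p (0.45 ± 0.11), miR-15b-3p (0.54 ± 0.15), miR-331-3p (0.52 ± 0.15) and miR-340-5p (0.50 ± 0.10) were higher at the high than at the middle dose, beside 7.93% of all tested miRNAs. miR-152-5p had 0.23 ± 0.11 and did not pass (edgeR adjusted p = 0.122). The 5 were picked by likeness to miR-34a-5p over libraries that include both doses, so these calls are not separate evidence. Closest to miR-34c-5p were miR-363-3p, miR-425-5p and miR-15a-5p, with r of 0.767, 0.725 and 0.714 over all libraries. Within the cluster of 14 these were 0.777, 0.722 and 0.416, and within the cluster of 21 they were 0.383, 0.302 and 0.614.

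Markers of liver and of other cells were read in the same libraries, and the counts of markers called higher or lower in the high dose average stand beside 31.4% of all miRNAs called in each direction and 62.8% in either. Hepatocyte miRNAs, 6 of 6 tested, summed to 239700 to 287500 CPM at the high dose and to 226900 to 309900 CPM in controls, with 2 higher and 4 lower. miR-122-5p, 1 of the lower ones, changed by -0.51 (edgeR adjusted p = 5.85e-06). Markers of multiciliated epithelium, the 2 miR-449 strands, of which 1 was tested, summed to 1.21 to 3.96 CPM at the high dose and 2.56 to 4.35 CPM in controls. Bile duct and other epithelial markers, 5 of 5 tested, summed to 863.9 to 1638 CPM at the high dose and 939.8 to 1950 CPM in controls, with 1 higher and 2 lower. Endothelial markers, the 2 strands of miR-126a, were both lower at the high dose, with a sum of 18910 to 22700 CPM at the high dose and 28700 to 37850 CPM in controls.

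White blood cell markers, 7 of 7 tested, summed to 2047 to 3224 CPM at the high dose and 1710 to 3467 CPM in controls, with 1 higher and 3 lower. Red blood cell markers, 4 of 4 tested, summed to 2261 to 4622 CPM at the high dose and 1521 to 4148 CPM in controls, with 1 higher and 1 lower. Stellate and smooth muscle markers, 5 of 5 tested, summed to 45920 to 60530 CPM at the high dose and 36350 to 49760 CPM in controls, with 2 higher and 1 lower. Nervous and endocrine markers, 3 of 4 tested, summed to 246.4 to 407.9 CPM at the high dose and 213.2 to 339.9 CPM in controls, with 2 higher, and miR-124-3p was at 0 in 33 of 35 libraries. Such sums mostly follow their most abundant miRNA, such as miR-192-5p for hepatocytes (mean 173000 CPM), miR-143-3p for stellate and smooth muscle cells (44350 CPM) and miR-486 for red blood cells (2622 CPM). They do not show members that moved apart, such as miR-145-5p (2.03) and miR-214-3p (-0.92) of the stellate and smooth muscle list. The part of these cell types in the levels of the miR-34 members was not tested.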

How the data were processed

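Small RNA libraries were made from liver total RNA with Illumina TruSeq Small RNA kits, per the labels' protocols. The deposited table holds the unnormalized counts the authors made for each mature miRNA, in 37 columns for 35 samples, and middle dose day 14 replicates 2 and 3 have 2 columns each, summed here. The genome build was rn6, per the submitters' processing notes. Aligner, counting rule and annotation were not given in the sources used here. No coordinates are printed because the RefSeq tables are of another assembly, and 686 of 763 names matched a RefSeq mature sequence.

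Counts were filtered with filterByExpr by group (minimum count 10, total 15), leaving 328 of the 612 miRNAs with counts, TMM-scaled and modelled with edgeR 4.0.16 under R 4.3.3, 1 mean per group over 35 libraries, 23 residual degrees of freedom and robust quasi-likelihood F-tests. Benjamini-Hochberg adjustment was made within each of 30 comparisons, of which 23 were planned and 7 (the comparisons between high or middle and low dose, of low dose day 7 with its other days, of low and middle dose effects between days, and of days over all doses) were added after the data were seen. The SE is the absolute log2 fold change over the square root of F. 95% intervals use 23 degrees of freedom. Ratios within libraries had a pseudocount of 0.5 and exact permutation tests within days. Clusters and likeness used log2 CPM with a prior count of 2.

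The members, lists and tests were chosen with earlier results of these data known. Named miRNAs were the members, their other arms and seed relatives, the 5 and 3 nearest by correlation to miR-34a-5p and miR-34c-5p, up to 4 of the p53-linked list each way, miR-192-5p, miR-194-5p, miR-215 and miR-122-5p. The steps were tested on simulated counts: among 325 miRNAs, the high dose average recovered 80% of changes of 1.5-fold and 94% of changes of 2-fold, with 2 of 127 unchanged ones called. For the high dose on day 14 the shares were 43% and 76%, and for high against middle dose 84% and 96%. The simulation changed 198 of the 325 miRNAs, at the high dose alone, and held no clusters. In the data high against middle dose called 17.4% of miRNAs. Adjusted p-values are harder to pass when fewer miRNAs change, so the simulated shares can overstate recovery in that comparison. Replicates of a group differed beyond counting noise, with a chi-square per degree of freedom of at least 34.8 in 34 pairs, so no library was taken as deposited again. Alternatives were DESeq2 1.42.0, other scalings and filters, thinning, single runs, fewer libraries, the replicate block and each library left out. Figures were drawn with matplotlib 3.10.9.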

Additional observations from a re-analysis of the deposited data

How the results depend on the processing

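The averages over days of miR-34a-5p at the high dose and of miR-34c-5p at the high and middle doses, the slopes of both and the miR-34a-5p to miR-34c-5p ratio at the high dose kept their direction and their side of the threshold under every alternative run. miR-34a-5p at the high dose stayed between 0.94 and 1.17. Its middle dose average lost the call with library size alone as scaling (0.34), after thinning to the smallest depth (0.39) and without control day 7 replicates 2 and 3 (0.28, an alternative added after seeing the data), and ranged from 0.35 to 0.56 as each library was left out. High against middle dose lost its call over days 3 and 14 alone (0.50). Library size alone moved the median of all miRNAs by -0.15 at the middle dose, and it moved the share of upward calls between high and middle dose to 68.1%, against 45.6% under TMM, with 54.1% under DESeq2's size factors. Days 3 and 14 alone called 30 miRNAs between high and middle dose, against 57 over the 3 days. The causes were not tested.

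The replicate numbers did not pair libraries: same-numbered libraries of a day had correlated deviations of -0.302 to 0.213, with a median of -0.01 over 51 pairs. With a block for the replicate number inside each day, the middle dose average of miR-34a-5p was 0.40 and lost its call (edgeR adjusted p = 0.0619), and so did its day 14 values at the high (0.82) and middle dose (0.90) and miR-34c-5p at the middle dose on day 14 (-0.79). No other call changed. Differences between days have no such fit.

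Signs turned in values that had not passed, except for miR-34c-5p at the middle dose on day 14, which had passed (-0.82) and was 0.043 without control day 14 replicate 1. For miR-34a-5p, day 7 to day 3 over all groups was -0.0975 with library size alone, -0.0102 with no low-count filter, -0.0326 with DESeq2, -0.0327 with its size factors, -0.0259 with the stricter filter, -0.0321 with only the groups compared and -0.043 after thinning, with -0.106 to 0.0556 over single libraries left out. Without control day 7 replicates 2 and 3, its day 7 values were -0.18 at the middle and -0.0355 at the low dose, and control day 7 to day 3 was 0.21. High against middle dose on day 14 was 0.038 after thinning, and the high dose effect on day 7 minus day 3 was 0.0721 with no filter. For miR-34c-5p, high against middle dose on day 3 was -0.0202 with the stricter filter, and with library size alone day 14 to day 3 was -0.108 at the high dose and -0.0694 over all groups.

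Over single libraries left out, miR-34a-5p ranged from -0.23 to 0.45 (middle dose, day 3), -0.0811 to 0.46 (middle dose, day 7), -0.18 to 0.13 (low dose, day 3), -0.27 to 0.0937 (high against middle, day 14), -0.34 to 0.21 and -0.51 to 0.0069 (high dose effect on days 7 and 14 minus day 3), -0.45 to 0.0415 (high dose day 7 to day 3) and -0.41 to 0.0589 (control day 7 to day 3). miR-34c-5p ranged from -1.23 to 0.24, -1.48 to 0.043 and -0.88 to 0.58 (high, middle and low dose, day 14), -0.0391 to 0.31 (low dose, day 3), -0.10 to 0.16 and -0.0015 to 0.46 (high against middle, days 3 and 14), -0.82 to 0.69 and -0.97 to 0.54 (high and middle dose effects on day 14 minus day 3), -0.61 to 0.90 (control day 14 to day 3), -0.31 to 0.0191 (low dose day 7 to its other days) and -0.17 to 0.23 (day 14 to day 3 over all groups). miR-34b-5p ranged from -0.0707 to 0.46 (high dose average) and -0.029 to 0.13 (slope), and miR-34c-3p from -0.73 to 0.0667 (low dose average) and -0.55 to 0.0362 (high against middle average). With 2 controls on day 14, leaving out 1 assumes that the other varies like the remaining groups.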
